A study of Sorghum bicolor with 9 samples.

Results

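Beta-amylase 1 (SORBI_3001G226600) and beta-amylase 2 (SORBI_3001G508800) are genes that the deposited table names after plastid enzymes which break starch down to maltose. They were picked by their identifiers as 2 of the 34366 protein-coding genes measured in sorghum leaves, because both stood above the control under mild drought in earlier results of these data. Their levels under drought against control are therefore given as a description, without a test. Sorghum (Sorghum bicolor) is a C4 cereal of dry regions, and 3 libraries each came from leaves with normal water supply (the control), from leaves in mild drought and from leaves in severe drought. Total RNA was made into strand-specific libraries, and the labels name no cultivar, age, duration of drought or sampling hour. Nor do they tell whether a group's libraries are from different plants, so a p-value reflects the spread among these libraries alone, and that spread may be technical.

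Leaf starch is laid down in chloroplasts in the light and taken apart mostly in the dark. Glucan water dikinases first phosphorylate the surface of the granule, and phosphatases remove the phosphate again. Beta-amylases then cut maltose from the free ends of the glucan chains, debranching enzymes such as isoamylase 3 open the branch points, a maltose transporter exports the sugar, and the cytosolic glucanotransferase DPE2 passes it on towards sucrose. In Arabidopsis several beta-amylases are catalytically inactive or act as regulators, and different active forms serve nightly breakdown and breakdown under osmotic stress. In C4 leaves of the maize type most starch lies in bundle sheath cells.

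Both genes lie on chromosome 1 in the deposited coordinates. The sources used here name no genome build, and the tables list neither exons nor untranslated regions. Beta-amylase 1 spans 21690596 to 21694416 and is named after the rice protein BAMY1. Its only listed protein domain is a zinc-binding region of reverse transcriptases, whereas the entry of beta-amylase 2 (77671368 to 77674269, named after rice BAMY2) lists the glycosyl hydrolase family 14 domain of beta-amylases. That beta-amylase 1 encodes a beta-amylase thus rests on its protein name alone and is in doubt. The number in each name comes from the best match in 1 species, so equal numbers from rice and Arabidopsis do not mark the same gene.

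The 2 loci also resembled each other in their surroundings. Within 10 protein-coding genes on either side, 2 protein names occurred at both loci. A gene for 60S ribosomal protein L21-2, a subunit of the cytosolic ribosome, lay next to each: SORBI_3001G226500 at 6544 bases from beta-amylase 1 and SORBI_3001G508900 at 4383 bases from beta-amylase 2. These were the only 2 genes of that name in the table. Genes named after the E3 ubiquitin ligase WAV3 formed the second match, with 4 near beta-amylase 1 and 3 near beta-amylase 2, which together are all 7 of that name on chromosome 1. The levels of the ribosomal neighbours overlapped between water levels. SORBI_3001G226500 averaged 36.3 ± 10.5 CPM (counts scaled by the effective library size, mean ± SD, n = 3) in the control, 46.3 ± 4.95 in mild drought and 45.1 ± 5.6 in severe drought. SORBI_3001G508900 averaged 35.0 ± 5.62, 40.3 ± 7.02 and 39.0 ± 6.75 CPM over the same 3 levels. No lncRNA transcript carried the identifier of either beta-amylase, and the nearest ones lay 13806 and 10768 bases away.

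The counts on protein-coding genes ranged from 20772692 (severe drought 3) to 38711314 (mild drought 2) per library. After a filter on low counts 22080 genes were tested with the quasi-likelihood test of edgeR, which called none in any of the 3 comparisons at an adjusted p under 0.05. At an unadjusted p under 0.05 edgeR had 1414 genes (6.4%) in mild drought against control, 1914 (8.67%) in severe drought against control and 815 (3.69%) in severe against mild drought. DESeq2 called 208 genes (0.95%, with 0.553% higher and 0.397% lower) in mild drought and 337 (1.54%, with 0.767% higher and 0.772% lower) in severe drought, each against control. Between the drought levels it called 23 (0.105%, with 0.0274% higher and 0.0776% lower in severe drought). On the first principal component (28.7% of the variance) 4 libraries stood apart from the other 5: replicate 3 of the control, replicate 2 of mild drought and replicates 1 and 2 of severe drought. Leaf markers were present throughout: phosphoenolpyruvate carboxylase, pyruvate phosphate dikinase and chlorophyll-binding proteins summed to between 44300 and 110000 CPM per library.

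Beta-amylase 1 was well expressed in every drought library and close to absent in watered leaves. Its counts were 34, 14 and 231 in control 1, 2 and 3, then 913, 4769 and 2808 in mild drought and 996, 1511 and 1479 in severe drought. Scaled for library size these were 0.901, 0.473 and 6.03 CPM in the control, 28.8, 110 and 112 CPM in mild drought, and 33.9, 70.4 and 72.9 CPM in severe drought. The lowest drought library stood 4.77-fold above the highest control library, so the groups did not overlap. Of all tested genes, 2.37% had each of the 6 drought libraries above each of the 3 controls, and 3.24% had each below. The 14 counts of control 2 carry an exact Poisson interval of 7.65 to 23.5 (95%, counting error only), which is small beside the 12.8-fold range among the controls.

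Mild drought averaged 83.8 ± 47.6 CPM of beta-amylase 1 and the control 2.47 ± 3.09 CPM, a log2 difference of 5.07 ± 1.01 (SE), or 33.6-fold. Severe drought averaged 59.1 ± 21.9 CPM, at a log2 difference of 4.57 ± 0.98 from the same controls, or 23.7-fold. Both comparisons use the same 3 control libraries. By size of the positive difference the gene was 14th of all tested genes in mild drought and 28th in severe drought. Control 3, with 231 counts, was also the control set apart on the first component. Without it the log2 differences were 6.90 in mild and 6.40 in severe drought. Without all 4 libraries set apart, which leaves 1 library of severe drought, they were 6.65 and 6.70.

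Beta-amylase 2 was a well expressed gene at every water level and stood higher in drought by a smaller factor. Its control libraries had 54.5, 60.3 and 39.7 CPM, those of mild drought 108, 86.9 and 152 CPM, and those of severe drought 86.8, 140 and 98.2 CPM. Each drought library lay above each control library, here by at least 1.44-fold. Mild drought averaged 116 ± 33.5 CPM and the control 51.5 ± 10.6 CPM (log2 1.17 ± 0.28, or 2.25-fold). Severe drought averaged 108 ± 28.3 CPM (log2 1.07 ± 0.28, or 2.11-fold). Its controls differed among themselves by 1.52-fold, against 12.8-fold for beta-amylase 1.

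**Figure D1:**
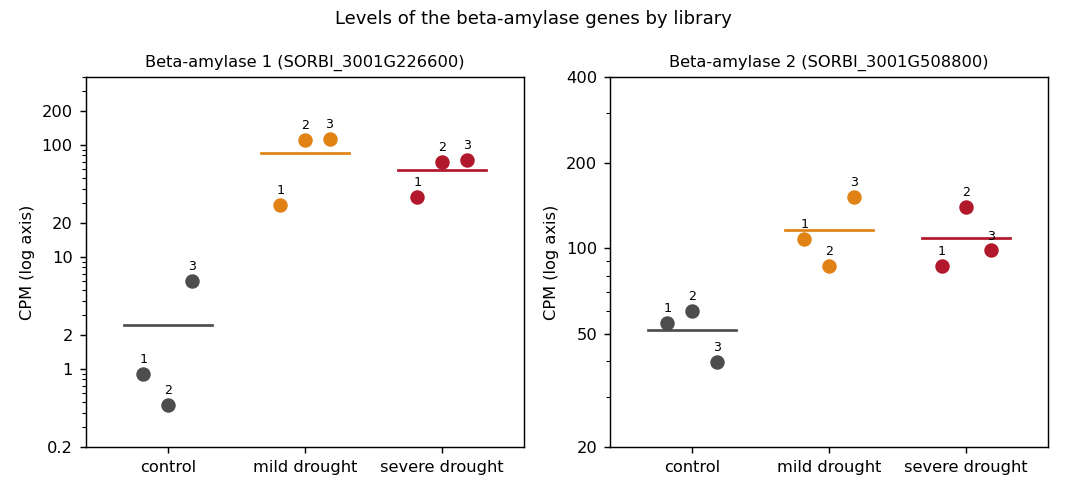
CPM on a log axis for beta-amylase 1 (left) and beta-amylase 2 (right) in the 9 libraries. Points are libraries with their replicate number, and lines are group means of 3. The drought libraries of beta-amylase 1 lie between 28.8 and 112 CPM and its controls between 0.473 and 6.03, and those of beta-amylase 2 lie between 86.8 and 152 CPM with controls between 39.7 and 60.3.

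The step from mild to severe drought is the comparison for which the genes were not picked, although it shares the mild drought libraries with one that was. No difference was detectable in either gene. The log2 difference of beta-amylase 1 was -0.50 ± 0.84 (adjusted p = 0.996 in edgeR over all tested genes; 95% interval -2.42 to 1.41), so the data leave room for a level between 0.187 and 2.65 times that of mild drought. For beta-amylase 2 it was -0.09 ± 0.27 (adjusted p = 0.996 in edgeR; interval -0.72 to 0.53), or 0.608 to 1.44 times. In both genes the severe drought libraries overlapped those of mild drought. The percentage of genes called in this comparison by edgeR was 0, and groups did not overlap in 2.99% of genes with severe drought higher and 4.83% with severe drought lower.

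The 2 genes did not follow each other from library to library within a water level. Among the mild drought libraries beta-amylase 1 was lowest in replicate 1 and beta-amylase 2 in replicate 2, and among the controls beta-amylase 1 was highest in control 3 where beta-amylase 2 was lowest. Over the 9 libraries Pearson's r of their log2 CPM was 0.757, and after removal of group means it was -0.253 (both a description of 9 libraries that share their scaling). Severe drought 1, set apart on the first component, had the lowest drought level of beta-amylase 2 and the second lowest of beta-amylase 1.

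The table names 10 genes as beta-amylases, and all 10 passed the filter. Of these 4 had a log2 difference above 0 in mild drought and 3 in severe drought, the 2 genes picked for standing higher included. The others were SORBI_3002G329500 (0.85 ± 0.69) and SORBI_3002G408400 (0.82 ± 1.77) in mild drought and SORBI_3001G372100 (0.67 ± 0.55) in severe drought. In mild drought and again in severe drought only beta-amylases 1 and 2 had every drought library above every control library. Across all tested genes that held for 6.2% in mild and 7.64% in severe drought. No beta-amylase had all drought libraries below all controls in either comparison (6.38% and 9.82% of all genes did). The most abundant of the family in watered leaves, a beta-amylase 3 (SORBI_3001G293800), had 141, 144 and 112 CPM in the control, 62.3, 44.5 and 128 CPM in mild drought and 107, 99.7 and 118 CPM in severe drought. Its log2 differences were -0.75 ± 0.35 in mild and -0.29 ± 0.34 in severe drought, and the groups overlapped.

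On a scale corrected for gene length (FPKM, fragments scaled by length and library size, as the authors deposited them) the order within the family differed between water levels. In the control 2 genes stood above beta-amylase 2, which had 21.5 ± 4.2 FPKM: the beta-amylase 3 genes SORBI_3001G293800 (52.6 ± 7.06) and SORBI_3003G003450 (24.9 ± 2.02). The libraries of SORBI_3003G003450 and beta-amylase 2 overlapped. In mild drought beta-amylase 2 came first with 47.5 ± 7.7 FPKM, before beta-amylase 3 SORBI_3001G293800 with 30.0 ± 13.2, whose libraries overlapped with it. In severe drought it averaged 36.4 ± 6.88 FPKM and that beta-amylase 3 35.1 ± 4.39, which did not differ beyond their spread.

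Beta-amylase 1 had rank 9 in the control with 0.558 ± 0.698 FPKM, above only an inactive beta-amylase 9 gene (SORBI_3002G408400). It had rank 4 in mild drought with 19.0 ± 11.3 FPKM and rank 4 in severe drought with 10.6 ± 3.39 FPKM. Its neighbours in that order, SORBI_3003G003450 and SORBI_3002G329500 in mild drought and beta-amylase 8 (SORBI_3004G027800) in severe drought, overlapped with it except SORBI_3003G003450 in severe drought (16.1 to 20.9 FPKM). Beta-amylase 2 exceeded beta-amylase 1 in every library on this scale, by 1.46-fold to 6.94-fold in the drought libraries and 12.2-fold to 236-fold in the controls.

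The summed FPKM of the 10 genes differed less than these 2. It averaged 135 ± 9.29 in the control, 160 ± 23.1 in mild drought and 127 ± 6.03 in severe drought. The share of beta-amylase 1 in that sum was 0.437% ± 0.567 in the control, 11.4% ± 5.84 in mild drought and 8.37% ± 2.83 in severe drought, and that of beta-amylase 2 was 15.8% ± 2.19, 30.0% ± 5.52 and 28.5% ± 4.39. The share of beta-amylase 3 (SORBI_3001G293800) was 38.8% ± 2.69, 18.8% ± 7.3 and 27.7% ± 4.39. Shares of 1 sum are not independent of each other. The length behind the FPKM also matters here: counts and FPKM of beta-amylase 1 imply a length 1.07 times its whole locus, against 0.761 for beta-amylase 2. The median was 0.59 over the 20261 genes with at least 50 counts in a library, the 90th percentile 1.07 and the highest 1.09. A ratio of at least 1 was found in 17.3% of these genes, so that of beta-amylase 1 is not exceptional. If the transcript of beta-amylase 1 is shorter than the locus, its FPKM is understated.

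**Figure D2:**
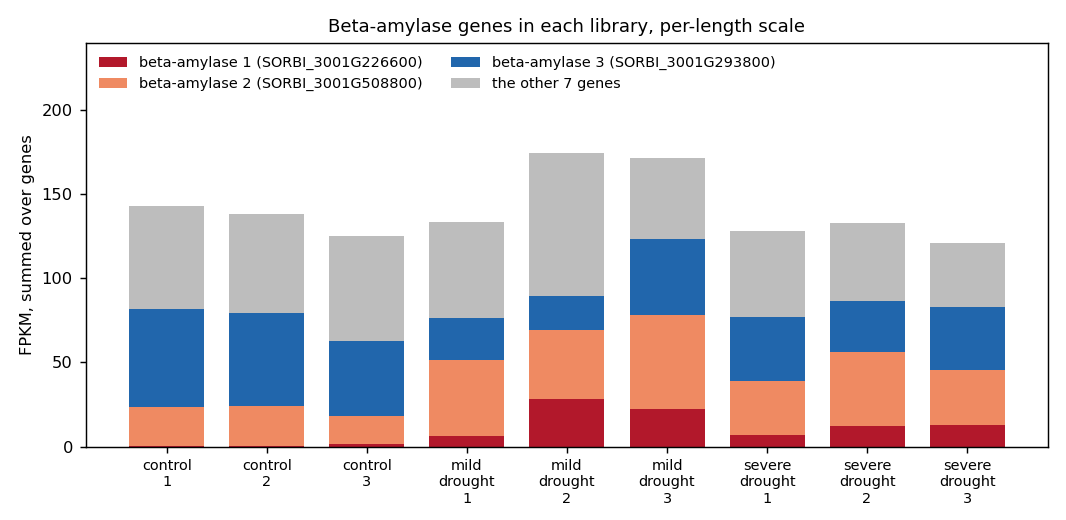
Summed FPKM of the 10 beta-amylase genes in each of the 9 libraries, stacked by gene. The shares of beta-amylase 1 (red) and beta-amylase 2 (orange) are larger in the drought libraries, where together with the others they sum to between 121 and 174 FPKM, while the controls sum to between 125 and 143.

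The other family members had overlapping groups in each drought level against control. The genes of beta-amylase 8 (SORBI_3004G027800) and the second beta-amylase 3 (SORBI_3003G003450) had log2 differences of -0.02 ± 0.21 and -0.22 ± 0.18 in mild drought and -0.01 ± 0.21 and -0.17 ± 0.18 in severe drought. In Arabidopsis BAM8 acts as a transcription factor. A gene named after Arabidopsis BAM2 (SORBI_3002G136200) lists, like the beta-amylase 8 gene, a BES1/BZR1 transcription factor domain besides that of beta-amylases. All its severe drought libraries (10.4, 14.3 and 11.2 CPM) lay below all its mild drought libraries (16.1, 15.4 and 14.5 CPM), as in 4.83% of all tested genes. The log2 difference between these levels was -0.35 ± 0.19 (adjusted p = 0.996 in edgeR). The inactive beta-amylase 9 gene SORBI_3001G372100 ranged from 3.12 to 23.9 CPM with overlapping groups. A pair of adjacent genes on chromosome 2 named after seed beta-amylases, SORBI_3002G329400 and SORBI_3002G329500, ranged from 7.47 to 39.9 and from 11.1 to 93.5 CPM. The highest value of the second was in mild drought 2, and reads of neighbouring copies may be split between them.

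Most other genes of starch breakdown did not stand higher under drought. The list of 37 breakdown genes, which includes both, had 31 genes that passed the filter, and edgeR called none in any comparison (background 0%). In mild drought 11 stood above 0 and 20 below, with a median log2 difference of -0.19 beside 0.02 over all tested genes. In severe drought 9 stood above 0 and 22 below, with a median of -0.30 beside -0.02. Beta-amylase 2 was picked for its level against the same controls, so its calls by DESeq2 are no result. Apart from it DESeq2 called none of the list in mild drought (0.95% of all genes) and 1 in severe drought, isoamylase 3 (1.54% of all genes). Beta-amylase 1 had no p from DESeq2 and so could not be called by it.

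Isoamylase 3 (SORBI_3002G233600), which removes branches from glucans during breakdown, was the gene of the list closest to the beta-amylases in direction. It had 34.7, 26.9 and 29.2 CPM in the control, 41.4, 40.3 and 41.3 CPM in mild drought, and 57.0, 50.6 and 47.8 CPM in severe drought. On this scale the 3 water levels did not overlap and followed the order of water shortage. Severe drought lay wholly above mild drought in 2.99% of all tested genes. In FPKM the drought levels of isoamylase 3 overlapped, at 12.0 ± 1.39 in mild and 12.4 ± 1.98 in severe drought, against 8.77 ± 1.45 in the control. The log2 difference in severe drought against control was 0.78 ± 0.15, with an adjusted p of 0.294 in edgeR and 0.000712 in DESeq2. Other genes pointed the other way. Chloroplast alpha-amylase 3 (SORBI_3003G276400), which cuts within glucan chains, had 22.9, 3.81 and 13.7 CPM in mild drought and 18.8, 25.2 and 9.91 CPM in severe drought, against 48.2, 43.5 and 29.4 CPM in the control. Every drought library was below every control library (log2 -1.58 ± 0.59 and -1.17 ± 0.58), and neither edgeR nor DESeq2 called it.

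Neither edgeR nor DESeq2 called the dikinases, the phosphatases, the maltose exporter or DPE2 described next. The cytosolic glucanotransferase DPE2 (SORBI_3002G407000) averaged 144 CPM in mild and 164 CPM in severe drought, against 234 CPM in the control, with overlapping groups (log2 -0.70 ± 0.31 and -0.51 ± 0.31). Alpha-glucan water dikinase (SORBI_3010G143500), which starts breakdown by phosphorylation, had log2 differences of -0.38, without overlap, in mild and -0.47 in severe drought, and phosphoglucan, water dikinase (SORBI_3004G120100) of -0.17 and 0.04. The maltose exporter gene (SORBI_3006G204400) had 0.20 and 0.10. Phosphoglucan phosphatase DSP4 (SORBI_3001G538800) stood lower without overlap at both drought levels (log2 -0.35 and -0.30), and LSF1 (SORBI_3007G116600) in mild drought only by that count (-0.78, and -0.08 in severe drought). Apart from DPE2 these genes were picked for their place in the pathway after their values were seen. After beta-amylase 1 the largest fitted differences of severe drought from the control, -3.21 for an alpha-amylase type A gene (SORBI_3002G190500) and -2.81 for the inactive beta-amylase 9 gene SORBI_3002G408400, came from genes below 2 CPM in every library.

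In the list, 4 genes in mild drought had all drought libraries above all controls and 4 below (12.9% each of the 31, beside 6.2% and 6.38% of all genes). In severe drought it was 3 above and 5 below (9.68% and 16.1%, beside 7.64% and 9.82%). The breakdown genes above the controls at both levels were beta-amylases 1 and 2 and isoamylase 3. The 2 beta-amylases were picked for standing above these controls and are part of the 4 and of the 3. The shares of genes above the controls are therefore no result for the list.

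**Figure D3:**
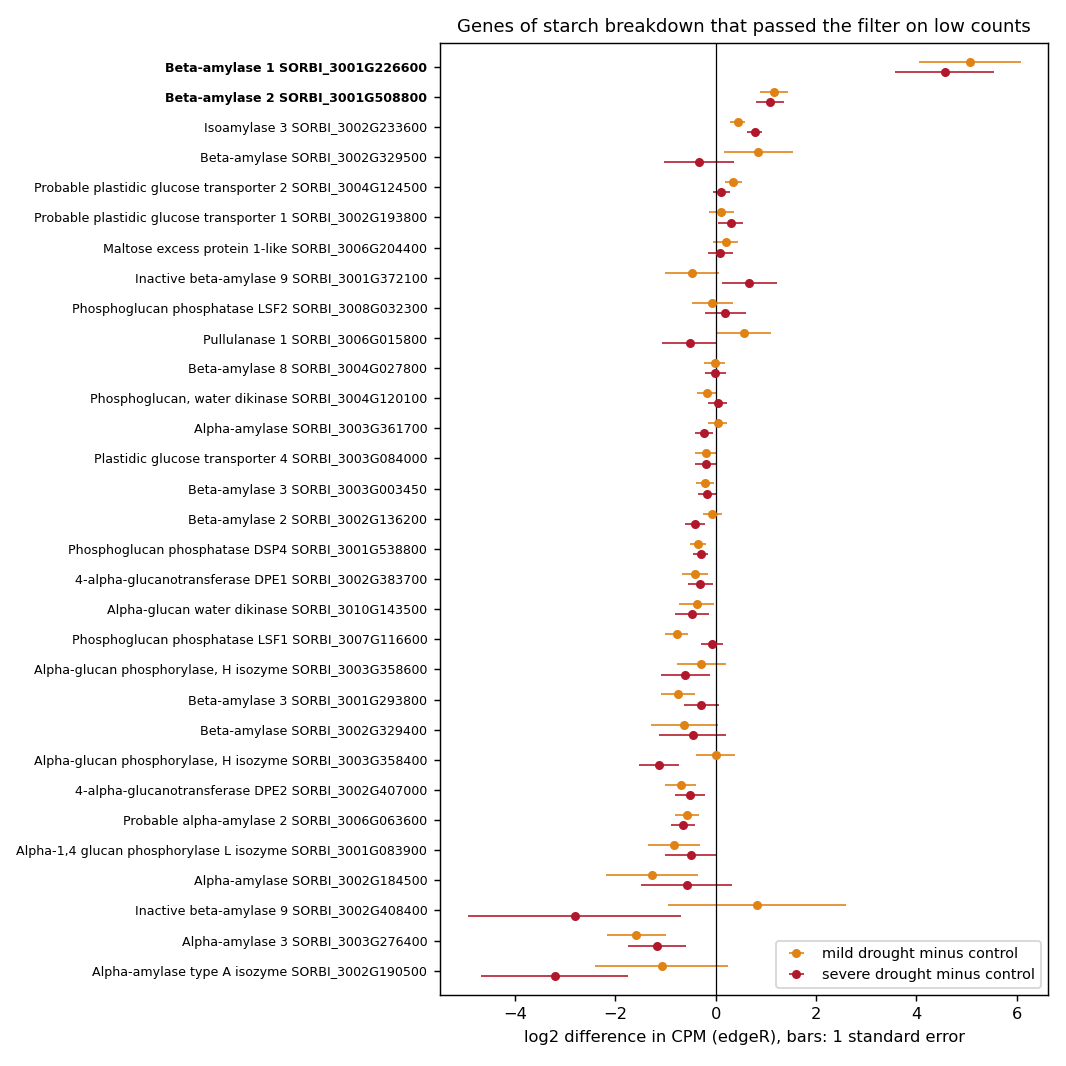
Log2 differences in CPM with 1 standard error for the 31 starch breakdown genes that passed the filter, with mild drought (orange) and severe drought (red) each set against the control. Beta-amylase 1 (5.07 and 4.57) and beta-amylase 2 (1.17 and 1.07), in bold, lie at the top, and 20 genes in mild and 22 in severe drought lie below 0.

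Genes of starch synthesis leaned lower in mild drought, and so did the list of starch breakdown (20 of 31 genes below 0, median -0.19). Of 24 synthesis genes 23 passed the filter and none was called by edgeR or DESeq2. Against control, DESeq2 called 0.95% of all genes in mild and 1.54% in severe drought. In mild drought 15 stood below 0 (median -0.22 beside 0.02), 7 had all drought libraries below all controls (30.4%, beside 6.38% of all genes) and 0 above (6.2% of all genes). In severe drought 15 stood below 0 as well (median -0.31 beside -0.02), with 3 wholly below (13.0%, beside 9.82% of all genes) and 0 above (7.64% of all genes). Granule-bound starch synthase 1b (SORBI_3002G116000), which makes amylose, averaged 334 CPM in mild and 405 CPM in severe drought, against 848 CPM in the control (log2 -1.34 ± 0.45 and -1.07 ± 0.44). The large subunit 1 of glucose-1-phosphate adenylyltransferase (SORBI_3001G100000), which makes ADP-glucose for starch, averaged 258 and 350 CPM against 494 CPM in the control (log2 -0.93 ± 0.33 and -0.50 ± 0.32). Its most abundant relative, large subunit 3 (SORBI_3009G245000), had log2 differences of 0.64 ± 0.57 and 0.03 ± 0.57. Soluble starch synthase 1 (SORBI_3010G047700) had -0.89 ± 0.42 and -0.37 ± 0.42, and isoamylase 1 (SORBI_3007G204600), a debranching enzyme of starch synthesis, -1.61 ± 0.53 and -1.79 ± 0.54. Isoamylase 1 had 3.89 CPM in control 3, within the range of the drought libraries, and 19.9 and 20.4 CPM in control 1 and 2. Soluble starch synthase 2-3 (SORBI_3010G093400) and large subunit 4 (SORBI_3002G088600) stayed below 2 CPM in every library.

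Among the sucrose genes, which handle the sugar that starch breakdown feeds, DESeq2 called 1 higher in severe drought (0.767% of all genes were). Of 33 genes 26 passed the filter, and edgeR called none. In mild drought 9 stood above and 17 below 0 (median -0.06), and in severe drought 16 above and 10 below (median 0.25). The most abundant, a cytosolic fructose-1,6-bisphosphatase (SORBI_3003G367500) and the sucrose-phosphate synthase genes SORBI_3005G089600 and SORBI_3003G403300, had log2 differences of -0.03, -0.03 and -0.01 in mild drought and 0.35, 0.60 and 0.55 in severe drought. A second fructose-1,6-bisphosphatase gene (SORBI_3009G152700) ranged from 56.6 to 361 CPM with overlapping groups. Mitochondrial neutral/alkaline invertase 1 (SORBI_3001G391600), which splits sucrose, averaged 32.1 CPM in severe drought against 21.1 CPM in the control (log2 0.61 ± 0.16), with an adjusted p of 0.391 in edgeR and 0.034 in DESeq2. The cell wall invertase gene SORBI_3004G166700 had the largest difference in mild drought (-2.01 ± 1.09), and the sucrose synthase 2 gene SORBI_3001G344500 had 1.12 ± 0.71. Neither was called. The insoluble beta-fructofuranosidase genes SORBI_3006G255400 and SORBI_3006G255600 had the largest differences between the drought levels (log2 -2.47 ± 1.44 and 1.27 ± 0.50 in severe against mild drought), with adjusted p = 0.996 in edgeR for both.

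Among the 11099 other genes with a protein name and a mean of at least 5 CPM, likeness to each beta-amylase was measured as Pearson's r of log2 CPM over the 9 libraries. The measure describes libraries that share depth and scaling, and the group difference by which the beta-amylases were picked contributes to it. The 99th percentile of r was 0.86 for beta-amylase 1 and 0.837 for beta-amylase 2. The genes most like beta-amylase 1 were indole-2-monooxygenase (SORBI_3007G003400, r = 0.981), a cytochrome P450 of indole metabolism in maize, and probable protein phosphatase 2C 37 (SORBI_3006G018400, r = 0.977), of a class that holds back abscisic acid signalling. They were followed by Ninja-family protein 5 (SORBI_3002G367100, r = 0.965), ricin B-like lectin R40C1 (SORBI_3003G105700, r = 0.963) and transmembrane protein 87B (SORBI_3001G381500, r = 0.961). Part of the likeness lay within the water levels. After removal of group means r was 0.981 for indole-2-monooxygenase, 0.935 for the lectin and 0.862 for the phosphatase. It was 0.79 for transmembrane protein 87B and 0.783 for Ninja-family protein 5. The 5 genes were chosen by r over the same libraries, so a high r within the levels follows in part from that choice.

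Indole-2-monooxygenase had 6.07, 4.33 and 13.6 CPM in the control, 39.0, 90.7 and 89.0 CPM in mild drought, and 65.9, 114 and 121 CPM in severe drought. As in beta-amylase 1, control 3 was the highest control, and replicate 1 was the lowest library of both drought levels. The phosphatase had 0.662, 1.05 and 3.0 CPM, then 7.0, 18.9 and 22.5 CPM, then 11.4, 12.2 and 23.6 CPM over the same libraries, with the same library of each level highest or lowest except that control 1 was the lowest control.

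The genes most like beta-amylase 2 were a different set of 5. Tubby-like F-box protein 6 (SORBI_3002G408300, r = 0.981), putative cytoplasmic aconitate hydratase (SORBI_3002G316900, r = 0.975), probable protein S-acyltransferase 15 (SORBI_3004G347100, r = 0.962), far upstream element-binding protein 1 (SORBI_3004G096500, r = 0.954) and fasciclin-like arabinogalactan protein 17 (SORBI_3002G039800, r = 0.951) led. The F-box gene had 33.7, 30.9 and 24.9 CPM in the control, 60.6, 41.0 and 76.3 CPM in mild drought and 46.5, 69.6 and 55.4 CPM in severe drought. Its lowest control was control 3 and its highest drought libraries were mild drought 3 and severe drought 2, as in beta-amylase 2. Aconitate hydratase, which turns citrate into isocitrate, ranked the 9 libraries exactly as beta-amylase 2 did (Spearman's rho = 1.0), between 0.287 CPM in control 3 and 20.4 CPM in mild drought 3. With group means removed these 5, chosen by r over the same libraries, had r between 0.847 (the acyltransferase) and 0.953 (the fasciclin-like protein).

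**Figure D4:**
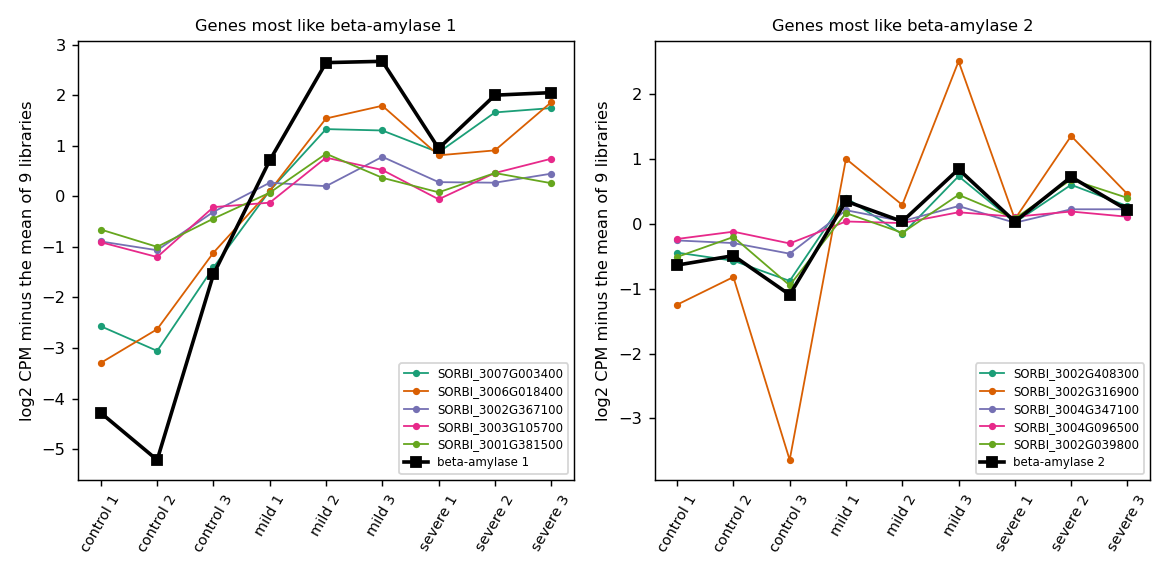
Log2 CPM minus the mean of 9 libraries for beta-amylase 1 (left, black) and beta-amylase 2 (right, black), each with the 5 genes of highest Pearson's r (0.961 to 0.981 and 0.951 to 0.981). The genes on the left share a high control 3 and, except Ninja-family protein 5, a low replicate 1 at both drought levels, and those on the right share a low control 3.

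Markers of other leaf cells were followed beside the 2 genes, since fewer cells of a type and less RNA per cell cannot be told apart in whole leaves. Guard cells are a cell type in which beta-amylases act in Arabidopsis. Of 22 genes listed by protein name for guard cells 21 had at least 1 count and 9 passed the filter. Many of the 22 are named EPIDERMAL PATTERNING FACTOR or like it, and whether those mark guard cells was not tested. The 22 genes summed to 50.6 to 92.4 CPM in mild drought and 62.1 to 114 CPM in severe drought, against 109 to 117 CPM in the control. By this sum each mild drought library lay below each control, as did 6.38% of all tested genes taken singly. The most abundant of them, a potassium channel KAT1 gene (SORBI_3004G107500), averaged 27.6 CPM in mild and 27.5 CPM in severe drought, against 57.5 CPM in the control (log2 -1.06 at both levels, without overlap in severe drought). A second KAT1 gene (SORBI_3004G107550) averaged 8.3 CPM in mild drought, without overlap, and 22.9 CPM in severe drought, against 12.3 CPM in the control. The anion channel SLAC1 (SORBI_3006G186500) averaged 31.5 and 34.1 CPM against 33.3 CPM in the control. The 10 vascular markers, all detected, summed to 708 to 954 and 731 to 780 CPM against 809 to 932 CPM, and the 12 bundle sheath markers to 3470 to 5670 and 4470 to 6750 CPM against 5270 to 5860 CPM. Starch breakdown also follows the hour of the day. The 9 clock genes, all of which passed the filter, summed to 2470 to 3150 CPM in mild and 2650 to 3020 CPM in severe drought, against 2410 to 2820 CPM in the control, with overlap. PRR73 and GIGANTEA made up most of each sum (1140 and 1030 CPM in the control). Singly, PRR95 (SORBI_3002G275100) and adagio-like protein 2 (SORBI_3004G042200) had all severe drought libraries above all controls (7.64% of all genes did). All other comparisons of single clock genes with the control overlapped. PRR37 (SORBI_3006G057866) ranged from 6.95 CPM in severe drought 3 to 49.1 CPM in mild drought 2. The part of any of these lists in the beta-amylase levels was not tested.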

How the data were processed

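Leaf RNA of 9 sorghum libraries was grouped by its labels into control, mild drought and severe drought. The authors deposited read counts per gene and FPKM per gene, per the file headers. The tools HISAT2 2.0.4, StringTie 1.3.3b and STAR are named, without roles, in the submitters' processing notes. The count table held 44775 entries, and the 34366 that were also in the FPKM table were analysed. Counts were filtered with filterByExpr, scaled with TMM and fitted over all 9 libraries with edgeR 4.0.16 in R 4.3.3, without covariate, with Benjamini-Hochberg adjustment over 22080 genes. Standard errors are the log2 difference divided by the root of F. The script was tested on simulated data. DESeq2 1.42.0 and limma 3.58.1 on log2(FPKM + 0.1) and log2(FPKM + 1) were alternatives. DESeq2 gave no p for beta-amylase 1.

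The 2 genes and all lists were chosen with earlier results of these data known. List membership went by the protein names that 20947 genes carried, and inhibitors and 1 RNA enzyme were taken out by name. Named were all beta-amylases, the 4 most abundant genes and the 2 with the largest differences of each list, called genes, and 5 most alike genes per beta-amylase, besides pathway genes picked afterwards. LncRNA counts served only for the transcripts nearest to the 2 genes. Library totals are in the report, and the common coefficient of biological variation was 0.503. Sequences of the genes were not used here.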

Additional observations from a re-analysis of the deposited data

How the results depend on the processing

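Beta-amylase 1 and 2 stood above the control at both drought levels under each of the 17 alternatives. Both were picked for standing there, and every drought library lay above every control. Leaving out libraries could therefore hardly change the sign, and its constancy is no support. One alternative, leaving out the 4 libraries set apart on the first component, was chosen after seeing the data. It leaves 1 library of severe drought, assumed to vary like the other groups. When 1 library was left out, the log2 difference of beta-amylase 1 lay between 4.60 and 6.90 in mild and between 4.10 and 6.40 in severe drought, the highest without control 3. That of beta-amylase 2 lay between 0.92 and 1.34 and between 0.84 and 1.21. Without the 4 libraries beta-amylase 1 stood at 6.65 and 6.70, and on log2(FPKM + 1), which compresses low values, at 2.94 in severe drought. Severe against mild drought had no fixed sign. Beta-amylase 1 lay between -0.91 and -0.23 when 1 library was left out and at 0.0484 without the 4 libraries. Beta-amylase 2 lay between -0.32 and 0.16 when 1 library was left out, with 0.16 without mild drought 3 and 0.04 without severe drought 1. On FPKM with limma it stood lower, at -0.39 ± 0.22 with a pseudocount of 0.1 and -0.38 ± 0.21 with 1, beside -0.09 ± 0.27 in the main fit. The size of this difference thus depends on the scale, and limma did not call it. DESeq2 called 208 (0.95%), 337 (1.54%) and 23 (0.105%) genes in mild drought, severe drought and severe against mild drought, where edgeR called 0. Among the 80 starch and sucrose genes that passed the filter it called 1 in mild and 3 in severe drought. Beta-amylase 2, which was picked for its level, was the 1 in mild drought and among the 3 in severe drought. Its calls are no result. FPKM with limma called 2 genes in mild drought at either pseudocount, a fit of the groups compared alone called 2 in severe drought, and leaving out 1 library gave 0 to 1 in mild and severe drought and 0 in severe against mild drought. Without the 4 libraries 4 and 24 genes were called. The cause of these changes in count was not tested. With the replicate block beta-amylase 1 had log2 differences of 5.36 and 5.01 and beta-amylase 2 of 1.18 and 1.06, and no gene was called. The labels do not say whether a replicate number marks a shared plant, batch or day. Same-numbered libraries correlated in their deviations between -0.37 and 0.37 and above 0.1 in 3 of 9 pairs, which cannot decide it.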

Other observations

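The length implied by counts and FPKM was nearly constant between libraries in both beta-amylases, from 4045 to 4117 bases in beta-amylase 1 and from 2188 to 2219 bases in beta-amylase 2. In the chromosome 2 beta-amylase gene SORBI_3002G329500 it varied from 2322 bases in mild drought 2 to 4356 bases in severe drought 3, so that its CPM and FPKM give different sizes for the peak in mild drought 2: 93.5 CPM and 42.3 FPKM, beside 42.8 CPM and 15.0 FPKM in control 3.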
